A study of Mus musculus with 6 samples.

Results

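Of the 48581 genes measured in mouse liver, 47 belong to the Cyp2 family of cytochrome P450 enzymes considered here. They were chosen by name alone, as every gene whose symbol is Cyp2 followed by a subfamily letter and a number, with Cyp2c70, an enzyme of murine bile acid synthesis, left out. Pseudogenes, whose symbols carry a suffix, are therefore not among them. The 47 genes comprise 14 of subfamily Cyp2c, 8 of Cyp2d, 8 of Cyp2j, 5 of Cyp2b, 4 of Cyp2a and 1 each of Cyp2e, Cyp2f, Cyp2g, Cyp2r, Cyp2s, Cyp2t, Cyp2u and Cyp2w. The name rule used no measured value.

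The study measured liver messenger RNA in male C57BL/6 mice. They were 10 to 12 weeks of age, had gone without food for 8 to 10 hours and, by the deposited column names, ate chow. The control group was 3 mice homozygous for floxed alleles of both Fxr and Shp (Fxr fl/fl Shp fl/fl). The double-knockout group was 3 mice in which both genes were deleted in hepatocytes. The sources used here do not name the Cre driver. FXR, encoded by Nr1h4, is the nuclear receptor that senses bile acids, and SHP, encoded by Nr0b2, is a co-repressor whose gene FXR activates. Values are FPKM, fragments scaled to transcript length and library total, so levels of different genes are compared per length. Nothing in the labels says whether replicates came from separate litters or days. The p-values set the difference between groups against the spread within groups among these 6 mice.

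P450 enzymes of the Cyp2 family sit in the endoplasmic reticulum, where they take electrons from P450 reductase and add oxygen to drugs, solvents, steroids and fatty acids. In liver, many of them are made most in the hepatocytes around the central vein, and Cyp2f2 is a known marker of the hepatocytes near the portal tract. Several differ between male and female mice under the growth hormone pattern, and the xenobiotic receptors CAR (Nr1i3) and PXR (Nr1i2) induce some of them, Cyp2b10 most of all.

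The hepatocyte markers were abundant in all 6 livers, with the sum over 10 of them between 65684 and 78380 FPKM in controls and between 37750 and 59856 in double knockouts. Nr1h4 stood at 59.8, 71.8 and 68.0 FPKM in control livers and 21.1, 15.5 and 22.0 in double knockouts (limma adjusted p = 0.0172), and Nr0b2 was at 14.7 to 18.7 against 0.0734 to 0.293 (limma adjusted p = 0.000277). Control replicate 3 stood apart from the other controls. Its log2 profile correlated with them at 0.952 and 0.955, against 0.983 between those 2. With double knockouts 1, 2 and 3 it correlated at 0.956, 0.954 and 0.966, against 0.952 to 0.971 for the other 2 controls. Control replicate 3 was thus about as close to the double knockouts as to its own group. The summed FPKM of 15 immediate-early genes was 930 in it, against 97.5 and 131 in the other controls and 93.6 to 288 in the double knockouts, and the sum of 14 acute-phase genes was 40837, against 8754 and 10974 and, in the double knockouts, 10724 to 25920. Fits without it, or with it weighted down, are given beside the Cyp2 results. Of the immediate-early genes 4 were positive and 11 negative between the groups, of the acute-phase genes 8 and 6, and 0 of either passed the test. What the state of that liver contributes to the Cyp2 values was not tested.

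Upstream sequences are shown for Cyp2b9 and Cyp2b13, neighbours that were at or near 0 in every control and measured in every double knockout, and for Cyp2a12 and Cyp2f2, the abundant genes with the largest differences in the lower direction. They are the reference sequence of RefSeq on GRCm38.p6, which gave a window for 39 of the 47 genes. Each runs 5′ to 3′ up to the base before the start of transcription. Where the gene begins earlier in the GENCODE M21 annotation, it runs up to that position. The first 2, chr7:26173159-26173408 and chr7:26061245-26061494 on the plus strand, are 250 bases each. Capitals mark the 2 bases at which they differ, 203 and 147 bases before the start.

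Cyp2b9: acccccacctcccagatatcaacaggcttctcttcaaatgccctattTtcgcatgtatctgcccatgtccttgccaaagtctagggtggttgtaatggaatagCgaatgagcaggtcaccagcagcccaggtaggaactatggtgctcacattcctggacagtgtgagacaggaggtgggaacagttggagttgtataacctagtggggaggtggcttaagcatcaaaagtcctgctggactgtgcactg

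Cyp2b13: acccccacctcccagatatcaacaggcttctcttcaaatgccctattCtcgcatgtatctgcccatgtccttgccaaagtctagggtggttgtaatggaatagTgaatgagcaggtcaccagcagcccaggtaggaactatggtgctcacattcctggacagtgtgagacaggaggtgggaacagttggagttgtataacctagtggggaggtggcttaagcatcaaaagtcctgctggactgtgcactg

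These windows are identical at 248 of 250 bases, or 99.2%. The window of Cyp2b10, the third Cyp2b gene with reads, matched that of Cyp2b9 at 182 of 240 aligned bases, or 75.8%. In the next 2 sequences, chr7:27028840-27029080 and chr7:27119705-27119908 on the plus strand, capitals mark TATAAA, the letters of a TATA box, in Cyp2a12 and AGGTCA, the half-site that many nuclear receptors can bind, in Cyp2f2.

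Cyp2a12: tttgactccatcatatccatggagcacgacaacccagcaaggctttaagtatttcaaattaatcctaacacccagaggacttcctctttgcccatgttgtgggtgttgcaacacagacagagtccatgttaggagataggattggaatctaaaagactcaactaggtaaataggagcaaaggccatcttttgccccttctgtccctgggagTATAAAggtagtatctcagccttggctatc

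Cyp2f2: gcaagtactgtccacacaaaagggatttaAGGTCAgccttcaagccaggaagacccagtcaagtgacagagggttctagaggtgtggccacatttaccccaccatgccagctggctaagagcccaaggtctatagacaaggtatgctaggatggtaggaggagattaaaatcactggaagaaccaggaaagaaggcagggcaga

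The letters AGGTCA, searched on both strands over 250 bases, were in the windows of 9 of 39 Cyp2 genes (23.1%) and in 14.0% of the 32851 windows of all genes. Those 9 were Cyp2b9, Cyp2b13, Cyp2b19, Cyp2b23, Cyp2c29, Cyp2c39, Cyp2f2, Cyp2j5 and Cyp2t4, of which 3 (Cyp2b19, Cyp2b23 and Cyp2t4) were listed at 0 in all 6 livers. For Cyp2c39 the match lay in a window at chr19:39347096-39347345, far from its listed start at 39510862. Its window at chr19:39510572-39510821 had none. The window of Cyp2c29, chr19:39286835-39287084, lay within its listed locus, 39269405-39330713. A Cyp2 gene was counted if any of its windows matched, while the shares over all genes are per window. The percentages are therefore not like measures. TATAAA was in 17 of 39 (43.6%) and in 12.4% of all windows. The spaced palindrome TTCNNNGAA, which STAT factors such as STAT5 can bind, was in 2 of 39 (5.13%) and in 7.02% of all windows. These 3 sets of letters do not overlap one another in the windows printed, and a match describes the letters only.

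The Cyp2 genes covered a wide range of levels. Cyp2e1, which oxidises ethanol, acetone and paracetamol, was by far the most abundant. Its levels were 5594, 6820 and 5964 FPKM in control livers and 6686, 5075 and 4996 in double knockouts. Cyp2d9, a testosterone hydroxylase made more in males, was at 1233, 1256 and 1106 against 1666, 1048 and 1033. Both genes had overlapping groups. Another 14 genes averaged between 100 and 1000 FPKM over the 6 livers, 4 between 10 and 100, 9 between 1 and 10, and 3 between 0.5 and 1.

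The remaining genes were too low to test, since a mean of 0.5 FPKM or more was required. Of these, 8 were listed at 0 in all 6 livers (Cyp2b19, Cyp2b23, Cyp2j7, Cyp2j11, Cyp2j12, Cyp2j13, Cyp2t4 and Cyp2w1), and 7 were below the filter (Cyp2c65, Cyp2c66, Cyp2d11, Cyp2d12, Cyp2d34, Cyp2j8 and Cyp2s1). The filter can pass a gene through the group in which it is high, so the counts that follow describe the 32 tested genes and not the family. Of the genes below it, Cyp2d11 was at 0.253, 0.332 and 0.293 FPKM in controls and at 0.0476, 0.193 and 0.0481 in double knockouts, a few fragments in each.

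**Figure D1:**
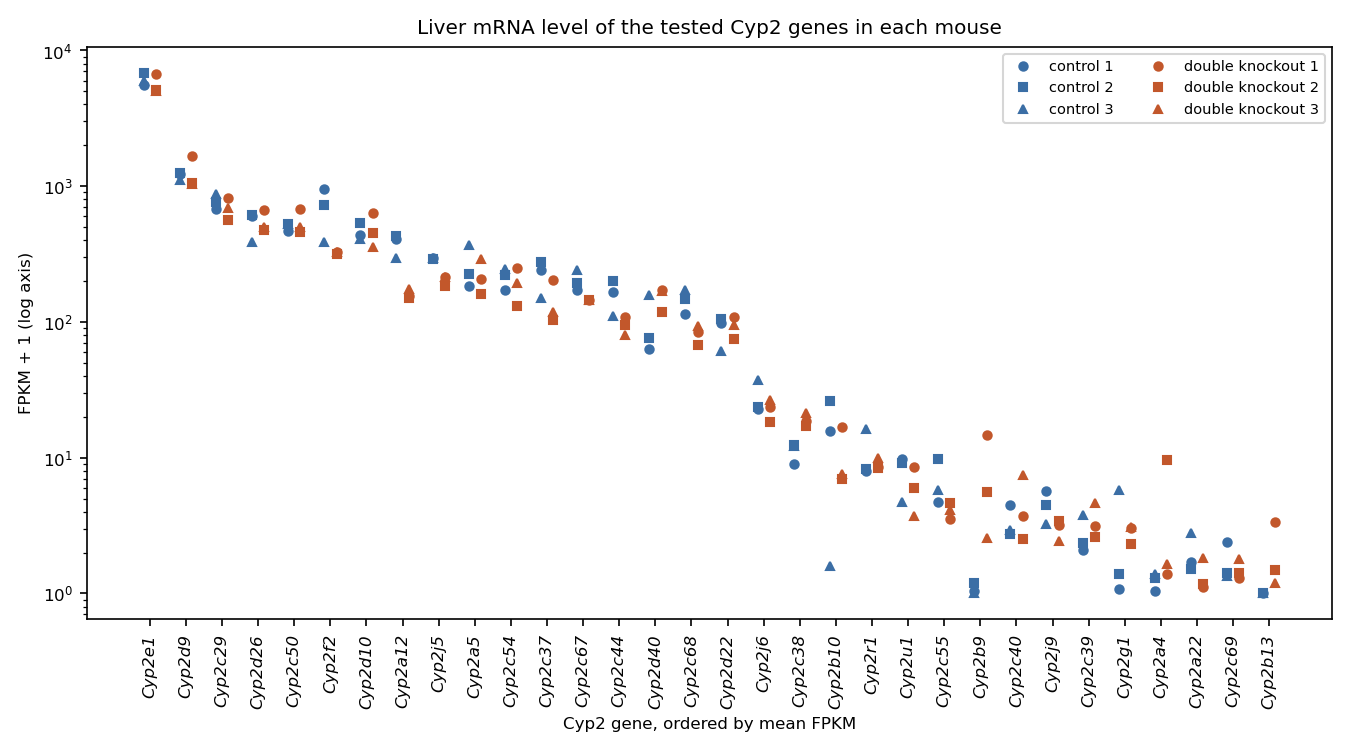
Level of each of the 32 tested Cyp2 genes (x axis, ordered by mean) in each liver, as FPKM + 1 on a log axis, with controls in blue, double knockouts in orange and a marker shape per replicate number. Cyp2e1 stands above all others at 4996 to 6820 FPKM, and the groups of Cyp2b9 separate at the low end.

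Summed over the family, the Cyp2 genes came to 11934, 13491 and 11818 FPKM in the controls and 13213, 9683 and 10053 in the double knockouts, so the groups overlapped. Cyp2e1 alone made up 46.9% to 52.4% of this sum in the 6 livers. The Cyp2d genes made up 17.9% to 20.4% in controls and 21.4% to 24.5% in double knockouts, and these ranges did not overlap. Their sums in FPKM did overlap, at 2438, 2589 and 2117 in controls and 3244, 2162 and 2151 in double knockouts. The Cyp2a genes made up 4.91%, 4.87% and 5.62% in controls and 2.75%, 3.28% and 4.63% in double knockouts. The Cyp2j share was 2.69%, 2.35% and 2.83% against 1.80%, 2.11% and 2.39%, with a narrow overlap. Shares of 1 sum are not independent of each other, and with 3 mice against 3 an exact permutation test of any such share cannot give a p below 0.1. These are bulk livers, in which fewer cells of a type and less RNA per cell cannot be told apart.

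No Cyp2 gene passed the main test, which used all 6 livers. In limma with Benjamini-Hochberg adjustment over 11806 genes at a threshold of 0.05, 0 of 32 Cyp2 genes were called higher, against 0.169% of all tested genes, and 0 were called lower, against 0.144%. At an unadjusted p under 0.05, 3 were higher (Cyp2b9, Cyp2b13 and Cyp2c38), or 9.38%, beside 6.98% of all genes, and 7 were lower (Cyp2a12, Cyp2c44, Cyp2c55, Cyp2c67, Cyp2c68, Cyp2f2 and Cyp2j5), or 21.9%, beside 7.98%. Those 10 genes were also the ones whose groups did not overlap in FPKM. Groups did not overlap in the higher direction for 3 of 32 (9.38%), near the 11.3% of all genes, and in the lower direction for 7 of 32 (21.9%), beside 11.6%. These shares are not matched for level. Of the 32 Cyp2 genes 16 averaged 100 FPKM or more, against 840 of the 11806 genes. Those 840 lay lower in general, with a median log2 fold change of -0.28.

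The median log2 fold change of the 32 genes, double knockout minus control on the log2(FPKM + 1) scale, was -0.15, with 14 positive and 18 negative. Over all tested genes the median was -0.01. Among genes averaging 100 FPKM or more, the 16 Cyp2 genes had a median of -0.20 and all 840 genes one of -0.28, so the abundant Cyp2 genes lay close to abundant genes in general. The sign of the Cyp2 median was not stable: it was 0.04 after quantile normalization and 0.01 with the trend on transcript length removed.

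**Figure D2:**
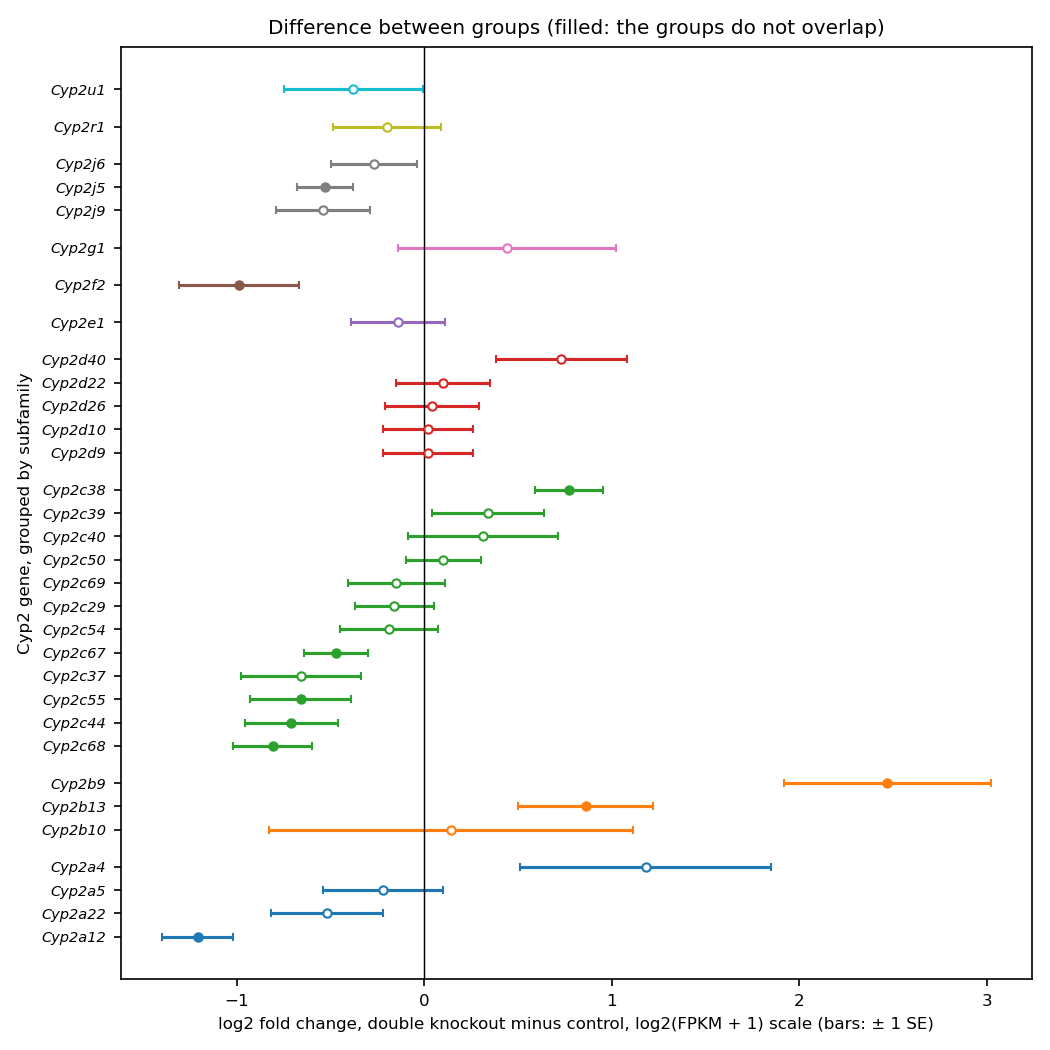
Log2 fold change (x axis, double knockout minus control on the log2(FPKM + 1) scale) of each tested Cyp2 gene (y axis, coloured by subfamily), with bars of 1 standard error. Filled points, for genes whose groups do not overlap, lie at -0.47 or below or at 0.77 or above; Cyp2j5 is at -0.53.

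The 4 Cyp2a genes differed among themselves. Cyp2a12, a steroid and bile acid hydroxylase, was at 404, 431 and 293 FPKM in controls and at 155, 149 and 174 in double knockouts. Every double knockout lay below every control. The means were 376 ± 73.2 and 159 ± 12.8 (SD, n = 3 each), 2.36-fold lower in the double knockouts. The difference of -1.21 on the log2 scale (SE 0.19) had the smallest p of the family and still missed the threshold (limma adjusted p = 0.0689). Without control replicate 3 it was -1.38 and passed (limma adjusted p = 0.0145). The longest transcript of Cyp2a12 shares 20.4% of its 50-base words with Cyp2a22.
Cyp2a22 itself was low, at 0.691, 0.512 and 1.80 FPKM in controls and 0.124, 0.166 and 0.837 in double knockouts, with overlapping groups (log2 fold change -0.52, limma adjusted p = 0.442).

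Cyp2a5, which hydroxylates coumarin and nicotine, was at 182, 226 and 369 FPKM against 207, 159 and 290 in double knockouts. The groups overlapped and the log2 fold change was -0.22 (SE 0.32, limma adjusted p = 0.772). Cyp2a4, a testosterone hydroxylase made more in females, was at 0.0456, 0.299 and 0.397 FPKM in controls and at 0.386, 8.58 and 0.649 in double knockouts. Only double knockout 2 was above 1 FPKM, and without that mouse the gene fell under the filter and had no value. The authors' deposited table calls Cyp2a4 higher (q = 0.00569), while limma did not (log2 fold change 1.18, SE 0.67, adjusted p = 0.447). Cyp2a4 shares 36.1% of its 50-base words with Cyp2a5, which was at 159 FPKM in that same liver. The sources used here do not say how fragments that fit both were assigned.

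Of the 5 Cyp2b genes, Cyp2b9 and Cyp2b13, both made more in female liver, were at or near 0 in every control. Cyp2b9 was at 0.0418, 0.195 and 0 FPKM in controls and at 13.8, 4.60 and 1.58 in double knockouts. On the scale of the smallest steps in the deposited values, that is about 1, 5 and 0 fragments against about 356, 117 and 40.6, so the lowest double knockout was well clear of the highest control, and the spread between double knockouts was wide. The log2 fold change was 2.47 (SE 0.55), the largest of the family, with a limma adjusted p of 0.143. The authors' deposited table calls Cyp2b9 higher (q = 0.035).

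Cyp2b13 was listed at 0 in all 3 controls and at 2.36, 0.476 and 0.198 FPKM in the double knockouts, about 60.9, 12.1 and 5.1 fragments (log2 fold change 0.86, SE 0.36, limma adjusted p = 0.33). Its mean passed the filter only through double knockout 1, and without that mouse it had no value. Both genes were highest in double knockout 1 and lowest in double knockout 3. Cyp2b9 shares 10.8% of its 50-base words with Cyp2b13, and their upstream windows, printed above, are nearly the same. Of the words of Cyp2b13, 27.3% occur in another gene, and it shares most, 13.8%, with Gm45225. How fragments that fit several genes were assigned is not stated, so the low values of Cyp2b13 are uncertain as separate values. Cyp2s1, an enzyme best known outside the liver that lies at the same end of the chromosome 7 cluster, followed that order too, at 0.761, 0.155 and 0.0515 FPKM, with 0, 0.102 and 0.0528 in controls; it was noticed after its values were seen and was not tested.

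Cyp2b10, the phenobarbital-inducible target of CAR, varied more within groups than between them. It was at 14.8, 25.3 and 0.591 FPKM in controls and at 15.7, 5.92 and 6.60 in double knockouts. Control replicate 3 was the lowest of the 6. The log2 fold change was 0.14 (SE 0.97, limma adjusted p = 0.96) with all mice and -1.09 without control replicate 3 (limma adjusted p = 0.188). It was also negative, at -0.26, without double knockout replicate 1, so the sign turned with either of these mice left out. Cyp2b10 thus did not separate the groups in the way of Cyp2b9.

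**Figure D3:**
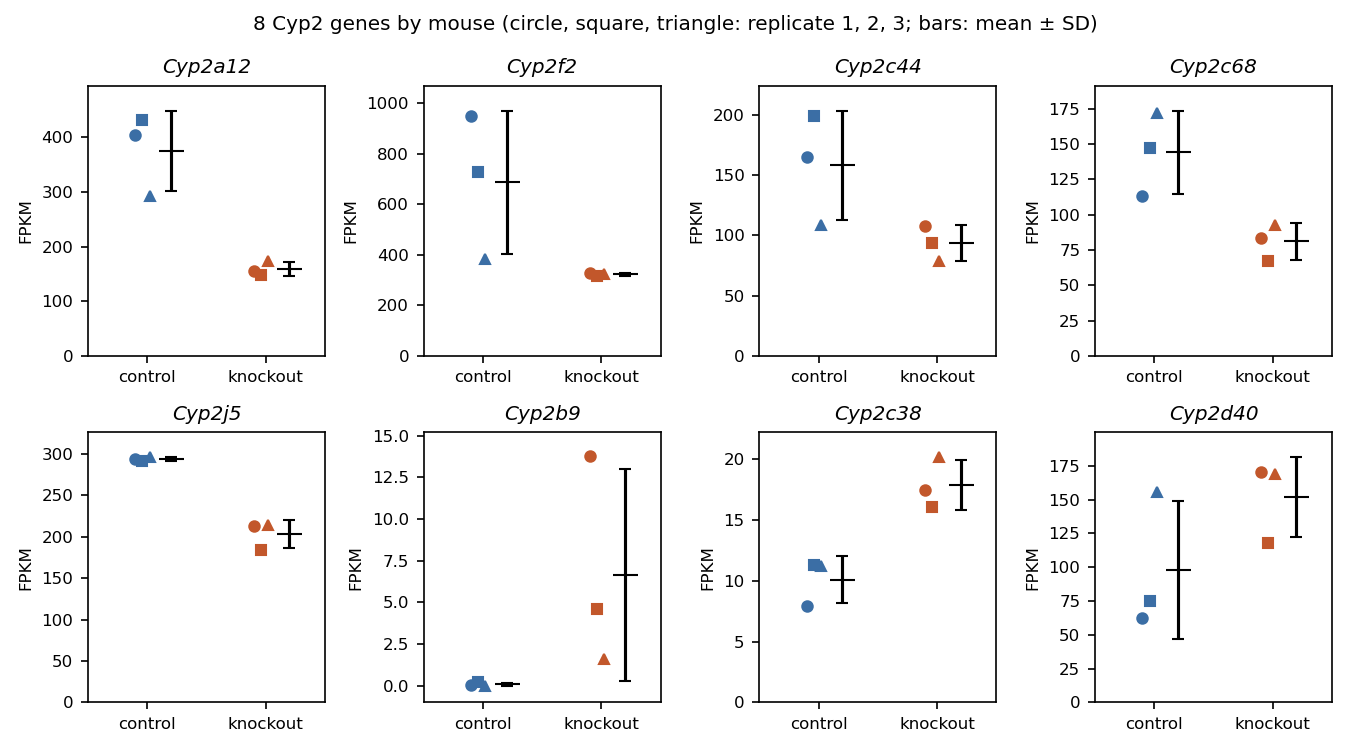
FPKM (y axis, from 0 except for Cyp2b9, whose axis starts below 0) of 8 Cyp2 genes in each control and double-knockout liver, with the mean ± SD beside each group and a marker shape per replicate number. In Cyp2f2 the 3 double knockouts lie at 316 to 328 while the controls spread from 384 to 949, and in Cyp2d40 control replicate 3, at 156, lies among the double knockouts.

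Among the 12 tested Cyp2c genes, 4 were positive and 8 negative, with a median log2 fold change of -0.17. The 3 most abundant, Cyp2c29, Cyp2c50 and Cyp2c54, are enzymes that oxidise arachidonic acid. They did not separate the groups. Cyp2c29 was at 674, 758 and 869 FPKM against 820, 561 and 695, a log2 fold change of -0.16 (limma adjusted p = 0.748). Cyp2c50 was at 465, 525 and 525 against 674, 461 and 503, and Cyp2c54 at 170.5, 219.5 and 245 against 247, 131 and 191.

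Another 4 Cyp2c genes were lower in FPKM in every double knockout than in every control. As a share of FPKM summed over all genes, Cyp2c67 and Cyp2c68 stayed apart, and the groups of Cyp2c44 and Cyp2c55 overlapped. Cyp2c68 was at 113, 147 and 172 FPKM in controls and at 83.8, 67.1 and 92.4 in double knockouts, or 144 ± 29.7 against 81.1 ± 12.9 (SD, n = 3 each), 1.78-fold lower. That is -0.81 (SE 0.21) on the log2 scale, with a limma adjusted p of 0.177. Cyp2c44, an epoxygenase of arachidonic acid that lies apart from the cluster of the others, was at 165, 199 and 109 FPKM against 108, 94.0 and 79.0, so the gap between the lowest control and the highest double knockout was narrow (log2 fold change -0.71, SE 0.25, limma adjusted p = 0.262). Without control replicate 3 it was -0.96, with an adjusted p of 0.0548.

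Cyp2c67 was at 172, 193 and 242 FPKM against 145, 143 and 143, 1.41-fold lower, with a spread in double knockouts of only 1.3 FPKM (SD). Cyp2c55, an oxidase of arachidonic acid found in liver and intestine, was at 3.74, 8.71 and 4.78 FPKM against 2.56, 3.62 and 3.10. The limma adjusted p-values were 0.274 and 0.323. With quantile normalization Cyp2c67 was at -0.23 in place of -0.47 on the log2 scale. The authors' deposited table calls Cyp2c44 (q = 0.0412), Cyp2c55 (q = 0.0407) and Cyp2c68 (q = 0.0199) lower, and gives Cyp2c67 a q of 0.273.

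Cyp2c38 went the other way. It was at 7.92, 11.3 and 11.2 FPKM in controls and at 17.5, 16.1 and 20.2 in double knockouts, with no overlap. The means were 10.1 ± 1.93 and 17.9 ± 2.08 (SD, n = 3 each), 1.77-fold higher, or 0.77 on the log2 scale with an SE of 0.18 and a limma adjusted p of 0.151. The authors' deposited table calls Cyp2c38 higher (q = 0.00792). Cyp2c37, another oxidase of arachidonic acid, was at 239, 275 and 148 FPKM against 203, 102 and 117, with overlap (limma adjusted p = 0.383 for -0.66 on the log2 scale). The neighbour of Cyp2c38, Cyp2c39, which oxidises retinoic acid, was at 1.08, 1.34 and 2.80 against 2.12, 1.60 and 3.61, with overlap.

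The Cyp2c genes are closely alike, which bears on how far single values can be trusted. Of the 50-base words in the longest transcript, 72.1% of those of Cyp2c40, 52.8% of Cyp2c67, 54.8% of Cyp2c69 and 43.3% of Cyp2c68 occur in another gene, and Cyp2c40 is the gene that Cyp2c67, Cyp2c68 and Cyp2c69 each share most with. Cyp2c67 and Cyp2c68 are therefore uncertain as separate values. Cyp2c38 shares 7.45%, and Cyp2c55 0.514%. Cyp2c40 was low, at 3.50, 1.76 and 1.93 FPKM against 2.70, 1.51 and 6.42, as was Cyp2c69, at 1.38, 0.418 and 0.345 against 0.294, 0.424 and 0.805.

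The 5 tested Cyp2d genes had log2 fold changes of 0.02 to 0.73, and in 4 of them the groups were near equal, between 0.02 and 0.10. Cyp2d26 was at 606, 614 and 384 FPKM in controls and 666, 472 and 497 in double knockouts, and Cyp2d10 at 438, 539 and 410 against 633, 449 and 358. Cyp2d22 was at 97.9, 104 and 59.7 against 107, 73.8 and 93.4. The sign of these 4 values turned when control replicate 3 or double knockout replicate 1 was left out, and they then lay between -0.20 and -0.03.

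Cyp2d40 was the exception among them. It was at 62.1, 74.8 and 156 FPKM in controls and at 170.1, 118 and 169 in double knockouts. Control replicates 1 and 2 lay below every double knockout, and control replicate 3 lay among the double knockouts. The log2 fold change was 0.73 (SE 0.35, limma adjusted p = 0.369) with every mouse. Without control replicate 3 it was 1.13 and passed (limma adjusted p = 0.0489), and without control replicate 1 it was 0.47 (limma adjusted p = 0.546). The adjacent pseudogene Cyp2d41-ps, no member of the family as counted here and singled out after its values were seen, was at 1.13, 1.07 and 2.77 FPKM against 9.62, 9.43 and 7.71 and rose with all 6 mice (log2 fold change 1.95, SE 0.25, limma adjusted p = 0.0346, with a range of 0.00154 to 0.189 over the other settings). Cyp2d40 shares 8.49% of its 50-base words with that pseudogene.

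Cyp2f2, which activates naphthalene and is made in hepatocytes near the portal tract, was at 949, 726 and 384 FPKM in controls and at 328, 316 and 325 in double knockouts. In FPKM the double knockouts were close together, below every control, and control replicate 3 was the nearest to them. The means were 686 ± 284 and 323 ± 5.80 (SD, n = 3 each), 2.13-fold lower. With all mice the log2 fold change was -0.99 (SE 0.32, limma adjusted p = 0.239). Without control replicate 3 it was -1.36 and passed (limma adjusted p = 0.0255). No 50-base word of its longest transcript occurs in another gene. The separation of the groups depended on the scale, as it did for Cyp2c44 and Cyp2c55. FPKM summed over all genes came to 702752 to 841739 in controls and 610612 to 697869 in double knockouts. As a share of that sum Cyp2f2 made up 0.135%, 0.092% and 0.0456% in controls and 0.0476%, 0.0518% and 0.0465% in double knockouts. On that scale control replicate 3 lay below every double knockout.

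Cyp2j5, an epoxygenase of arachidonic acid in liver and kidney, was at 294, 292 and 296 FPKM in controls and at 213, 184 and 214 in double knockouts. The difference was small and even, 294 ± 2.36 against 204 ± 16.9 (SD, n = 3 each), 1.44-fold lower (log2 fold change -0.53, SE 0.15, limma adjusted p = 0.193), and it was -0.53 without control replicate 3 as well. With quantile normalization it was -0.29 (limma adjusted p = 0.415). Cyp2j6 was at 21.9, 22.5 and 36.2 FPKM against 22.6, 17.4 and 25.4, and Cyp2j9 at 4.64, 3.50 and 2.22 against 2.18, 2.42 and 1.42, both with overlap.

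Cyp2e1 averaged 6126 ± 629 against 5586 ± 954 FPKM (SD, n = 3 each; log2 fold change -0.14, SE 0.25, limma adjusted p = 0.817). Cyp2r1, the vitamin D hydroxylase, was at 6.95, 7.20 and 15.4 FPKM against 7.47, 7.37 and 8.94, a range set by control replicate 3. Cyp2u1, a fatty acid hydroxylase, was at 8.72, 8.14 and 3.74 against 7.50, 5.02 and 2.70. Neither separated the groups, with limma adjusted p-values of 0.768 and 0.654.

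Cyp2g1, best known from the olfactory mucosa, was at 0.0825, 0.386 and 4.78 FPKM in controls and at 2.01, 1.31 and 2.09 in double knockouts. Control replicate 3 was the highest of all 6 mice. With all mice the log2 fold change was 0.44 (limma adjusted p = 0.747). Leaving out that mouse gave 1.18 and a call (limma adjusted p = 0.0489), which therefore rests on setting aside the control in which the gene was highest.

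**Figure D4:**
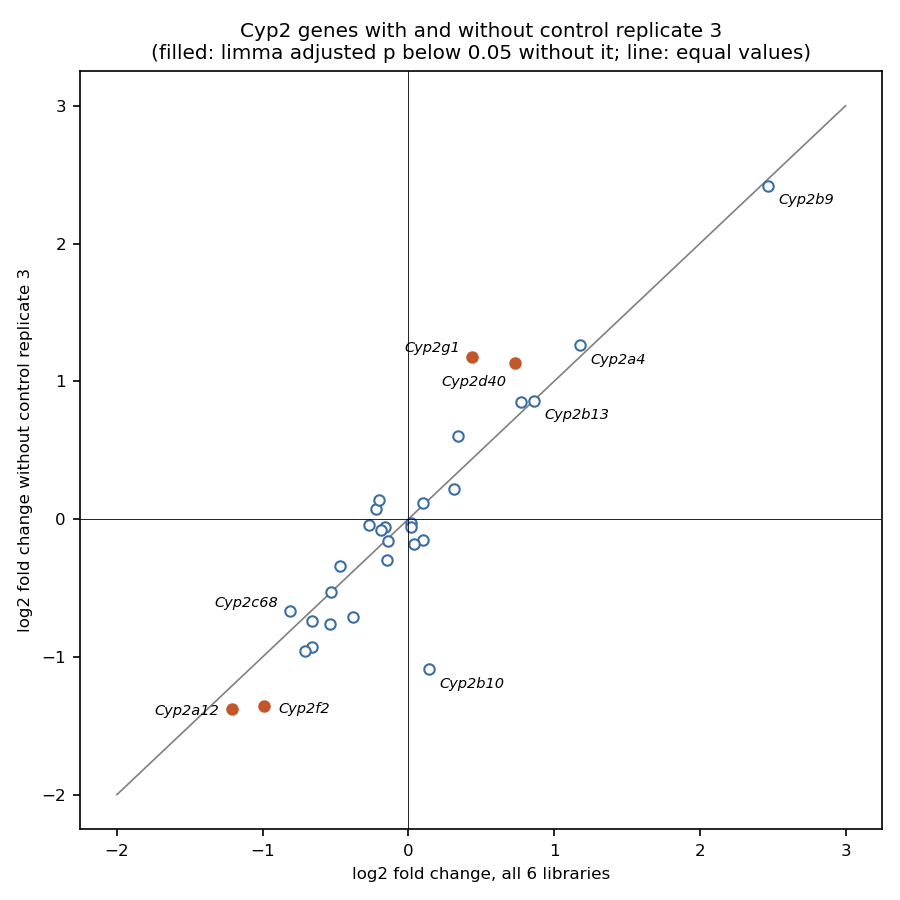
Log2 fold change of each Cyp2 gene with all 6 livers (x axis) against the value without control replicate 3 (y axis), both on the log2(FPKM + 1) scale, with a line of equal values. Filled points passed the test without that mouse, Cyp2a12 at -1.38, Cyp2f2 at -1.36, Cyp2d40 at 1.13 and Cyp2g1 at 1.18, and Cyp2b10 turned from 0.14 to -1.09.

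Leaving out control replicate 3 thus gave 4 calls among 31 Cyp2 genes. The 2 higher (Cyp2d40 and Cyp2g1) were 6.45%, beside 1.31% of all genes, and the 2 lower (Cyp2a12 and Cyp2f2) were 6.45%, beside 0.746%. In the other approach, limma's library weights kept all 6 mice and gave control replicate 3 a weight of 0.232, against 0.981 to 2.13 for the others. There 3 of 32 were called higher (Cyp2b9, Cyp2c38 and Cyp2d40), beside 2.79% of all genes, and 4 lower (Cyp2a12, Cyp2c44, Cyp2c68 and Cyp2f2), beside 2.02%. Cyp2a12, Cyp2f2 and Cyp2d40 passed in both. Their adjusted p-values with weights were 0.00478, 0.0211 and 0.0418.

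The authors' deposited table, in the column layout of Cuffdiff, tested the same 32 genes and calls 8 of them at q under 0.05. It calls 3 higher (Cyp2a4, Cyp2b9 and Cyp2c38), beside 2.85% of all genes in the authors' deposited table, and 5 lower (Cyp2a12, Cyp2c44, Cyp2c55, Cyp2c68 and Cyp2f2), beside 1.73%. For Cyp2a12 the authors' deposited table gives q = 0.00121 and for Cyp2f2 q = 0.00999. Cyp2j5 has q = 0.276 in the authors' deposited table, although its groups were tight and apart.

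Control replicate 3 was the extreme mouse for Cyp2 genes about as often as for other genes, or less. It was the highest of the 6 in 9 of 32 Cyp2 genes (28.1%), close to its 26.6% over all genes, and the lowest in 4 (12.5%), against 26.0%. Double knockout 2 was the lowest in 11 of 32 (34.4%), against 22.3% of all genes, and double knockout 1 the highest in 9 (28.1%), against 10.3%. Those 9 included 5 of the 5 tested Cyp2d genes. Double knockout 2 also had the lowest sum of hepatocyte markers, at 37750 FPKM, and all 8 markers of Kupffer cells and macrophages were highest in it, summing to 276 FPKM against 69.1 to 174 in controls and 109 and 122 in the other double knockouts. In the same liver 5 of 6 sinusoidal endothelial markers (sum 58.8 FPKM) and 4 of 5 stellate markers (sum 115 FPKM) were the highest of the 6. Of the hepatocyte markers 2 were positive and 8 negative between the groups, with a median log2 fold change of -0.25, and all 8 macrophage markers were positive, with a median of 0.62. Their part in the Cyp2 values was not tested.

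Most of the genes lie in clusters of neighbours on the GRCm38 assembly. There are 15 on chromosome 7, 14 on chromosome 19, 8 on chromosome 15, 8 on chromosome 4 and 1 each on chromosomes 3 (Cyp2u1) and 5 (Cyp2w1). Cyp2r1, at chr7:114549682-114562972, and Cyp2e1, at chr7:140763739-140774987, lie far from the chromosome 7 cluster. In that cluster the order ran from Cyp2s1 at 25802475 through Cyp2b10, Cyp2b13, Cyp2b9 and Cyp2a4 to Cyp2g1, Cyp2a5, Cyp2a22, Cyp2a12 and Cyp2f2, which ends at 27133660. The 4 tested genes of that run before Cyp2g1 had positive log2 fold changes, from 0.14 to 2.47, and the 4 after it negative ones, from -0.22 to -1.21. Cyp2b9 and Cyp2a12 held the largest difference in each direction. The filter itself favoured part of this split. Cyp2b13, Cyp2b9 and Cyp2a4 averaged 0, 0.0791 and 0.247 FPKM in controls and passed it only through the double knockouts. Cyp2a22, at 1.0 FPKM in controls and 0.376 in double knockouts, passed it only through the controls. The signs of these genes are therefore no evidence of a pattern along the chromosome. Not all of these signs held when a mouse was left out. Without control replicate 3 Cyp2b10 was at -1.09 and Cyp2a5 at 0.07, and Cyp2a22 had no value. Without double knockout replicate 1 Cyp2b10 was at -0.26 and Cyp2b13 had no value, and without double knockout replicate 2 Cyp2a4 had none. This order was noticed after the values were seen and is a description. On chromosome 19, neighbours ran from Cyp2c29 at -0.16 through Cyp2c38 at 0.77 and Cyp2c39 at 0.34 to Cyp2c67 at -0.47 and Cyp2c68 at -0.81, of which Cyp2c29 and Cyp2c39 had overlapping groups.

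**Figure D5:**
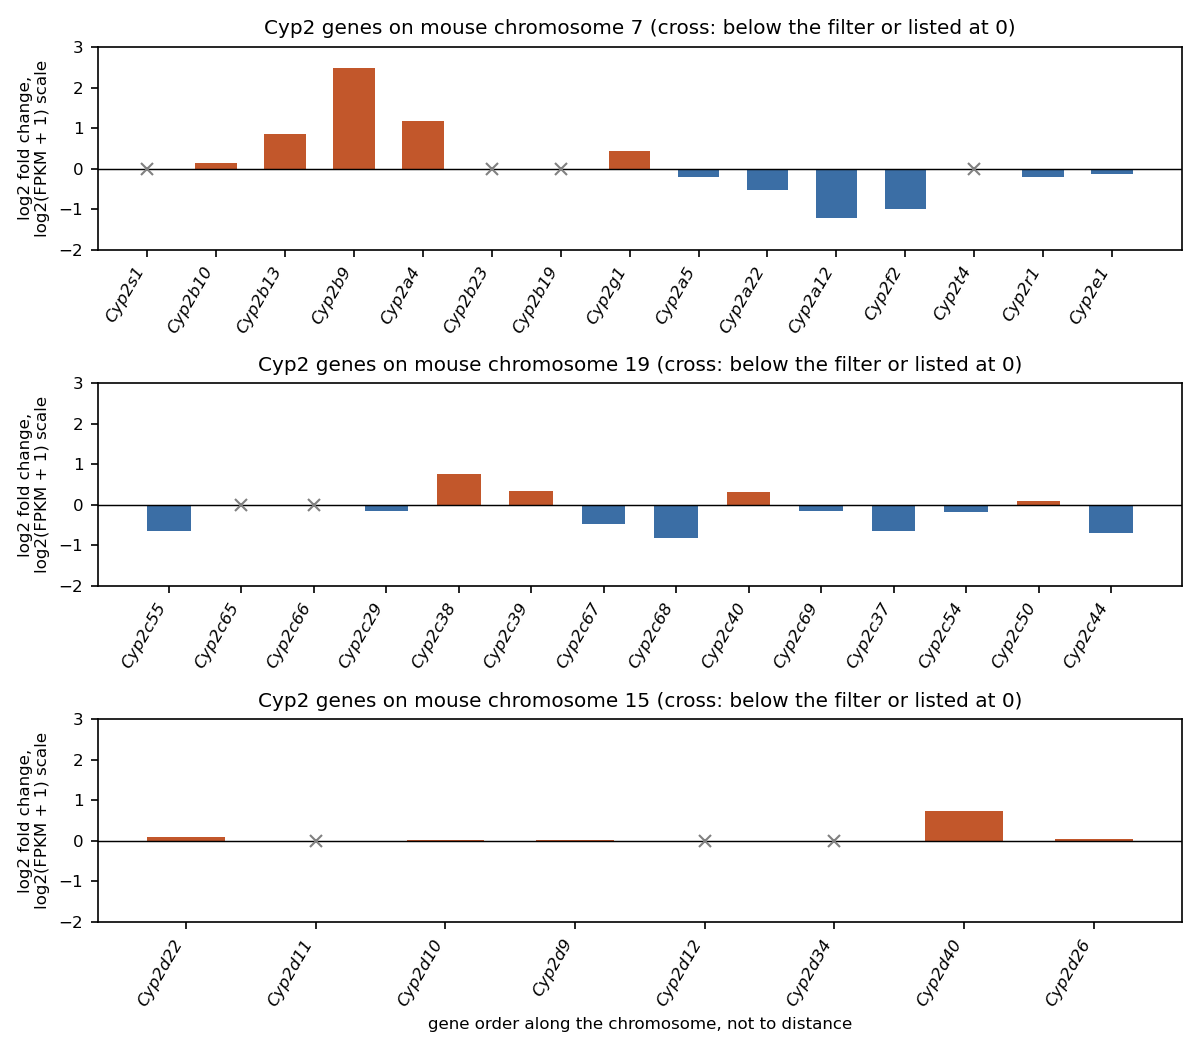
Log2 fold change (y axis, log2(FPKM + 1) scale) of the Cyp2 genes on chromosomes 7, 19 and 15 in their order along each chromosome (x axis, not to distance), with crosses for genes that were not tested. On chromosome 7 the bars are positive from Cyp2b10 at 0.14 to Cyp2g1 at 0.44 and negative from Cyp2a5 at -0.22 onwards, and on chromosome 15 Cyp2d40, at 0.73, stands above its neighbours. Cyp2b13, Cyp2b9 and Cyp2a4 passed the filter only through the double knockouts, and Cyp2a22 only through the controls.

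Lists of genes around the family were read beside it. Of 20 regulators of Cyp2 genes, 0 passed the test in either direction, with 11 positive and 9 negative and a median log2 fold change of 0.10. The most abundant, the growth hormone receptor Ghr, was at 212, 229 and 312 FPKM against 257, 222 and 237, and Cebpa at 168, 171 and 137 against 149, 124 and 195. In 5 regulators every double knockout lay above every control and in 1 below, beside 11.3% and 11.6% of all genes. The 5 were Ahr, Arnt, Nr3c1, Rxra and Stat5b, named after their values were seen. Ahr, the receptor for dioxins, was at 6.64, 8.68 and 8.71 FPKM against 14.6, 13.1 and 15.7, 1.81-fold higher (log2 fold change 0.79, limma adjusted p = 0.119, and 0.0248 with library weights). Rxra, the partner receptor of CAR, PXR and FXR, was at 87.7, 71.9 and 62.1 against 104, 108 and 128 (limma adjusted p = 0.2). The 2 xenobiotic receptors were looked at for their role, after their values were seen. Nr1i3 was at 82.8, 101 and 105 FPKM against 106, 73.1 and 67.2, with overlap, and Nr1i2 at 27.9, 28.4 and 24.2 against 20.5, 13.3 and 22.0, lower in every double knockout (log2 fold change -0.53, limma adjusted p = 0.298).

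Of 21 tested targets of CAR and PXR outside the family, 0 passed with all mice, with 8 positive and 13 negative and a median of -0.02. Cyp3a11, the main PXR-inducible P450, was at 2205, 2549 and 2555 FPKM against 3473, 2753 and 2011, and the glutathione transferase Gstm1 at 1114, 1482 and 940.2 against 915, 886 and 1849. Of 13 genes for the electron donors of P450 enzymes and for haem, 0 passed (4 positive, 9 negative, median -0.14). Of these, cytochrome b5, Cyb5a, was at 1600.1, 1860.3 and 2383 FPKM against 1916, 1312 and 1804, and Pgrmc1, a haem-binding partner of P450 enzymes, at 814, 851 and 1034 against 583, 486 and 558, lower in every double knockout (limma adjusted p = 0.174). Ces2a, a carboxylesterase among the CAR and PXR targets, passed as lower without control replicate 3, and there 0 of the electron donor and haem genes passed.

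Because Cyp2b9, Cyp2b13 and Cyp2a4 are made more in females, genes with a known sex bias outside the family were counted, all mice here being male. Of 7 tested female-biased genes (of 17 listed), 5 were positive and 2 negative, with a median of 0.96. Ntrk2, a neurotrophin receptor, rose from 0.0406 to 0.0754 FPKM in controls to 3.26 to 6.17 (limma adjusted p = 0.0154), and Cyp4a14, a fatty acid hydroxylase, fell from 473, 583 and 523 to 84.1, 138 and 120 (limma adjusted p = 0.017). Of 15 male-biased genes, 8 were positive and 7 negative, with a median of 0.12, and 1 passed: Moxd1, a monooxygenase, rose from 0.384, 0.290 and 6.54 to 121, 121 and 85.9 FPKM (limma adjusted p = 0.0277). Rtn4 of the female-biased and Susd4 of the male-biased genes also passed as higher without control replicate 3.

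Markers of the zones of the liver lobule, with Cyp2 genes left out of the lists, were read beside Cyp2f2 and Cyp2e1. Of 12 periportal markers, 0 passed with all mice, 2 were positive and 10 negative, the median log2 fold change was -0.93, and 7 were lower in every double knockout than in every control, beside 11.6% of all genes. Hsd17b13 and Pigr passed as lower without control replicate 3 (limma adjusted p = 0.0489 and 0.0196). The summed level of the list was 7383 to 9387 FPKM in controls and 4228 to 7218 in double knockouts, so the groups did not overlap in FPKM. As a share of FPKM summed over all genes, control replicate 3 lay below double knockout replicate 3, so on that scale they overlapped. The 2 most abundant were Ass1 of the urea cycle, at 2830, 2980 and 2260 FPKM against 1573, 1278 and 2142, and Pck1 of glucose production, at 1205, 1629 and 1639 against 1439, 1064 and 1931. Cyp2f2, at -0.99, was near that median, and the part of zonation in its level was not tested.

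Of 12 pericentral markers, 0 passed with all mice, 9 were positive and 3 negative, and the median was 0.21. In 4 every double knockout lay above every control, beside 11.3% of all genes, and Rhbg, an ammonium transporter, passed as higher without control replicate 3 (limma adjusted p = 0.00406). Their sum was 2982 to 3407 FPKM in controls and 3316 to 4263 in double knockouts. The 2 most abundant were Oat, at 733, 637 and 589 FPKM against 1125, 897 and 1029, and Aldh1a1, at 509, 525 and 826 against 1077, 862 and 858, both higher in every double knockout. Cyp2e1, at -0.14, did not separate the groups. Markers of cells other than hepatocytes were present at lower levels, and 0 passed the test with all mice. The sums of 6 sinusoidal endothelial markers (39.4 to 50.9 FPKM in controls and 27.7 to 58.8 in double knockouts), 5 stellate markers (45.4 to 90.7 and 45.1 to 115) and 4 lymphoid markers (1.44 to 2.60 and 1.88 to 4.18) overlapped between the groups. That of 5 cholangiocyte markers was 33.7 to 44.2 FPKM in controls and 59.1 to 63.7 in double knockouts, mostly from Spp1, at 31.1, 34.3 and 42.6 against 55.2, 59.5 and 60.9, which passed as higher without control replicate 3. Whether these cells bear on any Cyp2 value was not tested.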

How the data were processed

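Liver messenger RNA of 3 control and 3 double-knockout mice was measured. Per the labels' protocols, a Qiagen kit was used for RNA and Illumina's stranded mRNA kit for libraries. Cuffdiff 2.2.1, STAR 2.4.2a, Picard 1.119, Trimmomatic, bcl2fastq 2.17.1.14 and the build GRCm38 (mm10) are named, without their roles, per the submitters' processing notes. The sources used here do not give the handling of fragments that fit several genes, the use of strand or the gene annotation. The authors deposited FPKM per gene and library (48699 rows) and, per the file headers, a Cuffdiff-layout comparison with group FPKM, p-values and q-values, from which only values named as the authors' are taken.

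Groups and replicate numbers came from the sample titles. One row per symbol was kept (48581 genes), after restoring 27 symbols that had become dates. FPKM are not counts, so limma 3.58.1 (R 4.3.3) with a mean-variance trend was run on log2(FPKM + 1) for genes averaging 0.5 FPKM or more, with Benjamini-Hochberg adjustment over all of them. A log2 fold change on this scale understates the change of low genes, and linear folds are ratios of mean FPKM. The test was checked on simulated data with equal noise in all 6 libraries and large changes. That check does not cover a library that stands apart or small differences. The total fragments per library are not stated. The smallest step of the deposited values was sought in a fixed narrow range of FPKM times kilobases. Its median there was 0.0726 to 0.0776 over the 6 libraries and was taken as 1 fragment. Because the range was fixed, these values cannot show whether depth was similar. Fragment numbers in the text come from that step and are approximate. Deviations from the group means correlated at 0.22, -0.0754 and 0.301 between same-numbered control and double-knockout livers. Between differently numbered ones they correlated at -0.321 to 0.254. These values do not settle whether the numbers pair the mice, and the main fit used no block. Upstream sequences came from RefSeq windows of 250 bases (GRCm38.p6) and shared 50-base words from the longest GENCODE transcript. Gene positions are those of GENCODE M21, looked up by identifier (47 of 47 found). For 34 of the 47 the deposited locus has the same start and end, and for 39 the GENCODE position lies within it.

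The Cyp2 genes and the 15 gene lists were chosen with earlier results of these data known. Named genes were, per subfamily, the 3 most abundant tested genes and the 2 with the largest log2 fold change, every gene called in the authors' deposited table or with 1 library left out, and for each list up to 4 genes past the threshold or else its 2 most abundant; further genes are named with their values for completeness. Alternatives were other pseudocounts (0.1 and 0.25), filters, scalings, library weights, removal of a trend on transcript length, a replicate block, summed repeated rows and leaving out each library.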

Additional observations from a re-analysis of the deposited data

How the results depend on the processing

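The count of Cyp2 genes called was 0 in each direction under the main fit and changed under 2 kinds of setting. With library weights it was 3 higher and 4 lower, and leaving out each replicate in turn gave 0 to 2 higher and 0 to 2 lower, with every such call arising without control replicate 3. The cause was not tested. Over all genes, calls numbered 20 higher and 17 lower in the main fit, 329 and 238 with library weights, 154 and 88 without control replicate 3, 0 and 2 with no filter on low values, and 0 to 3 and 2 to 4 when any other library was left out. The median log2 fold change of the tested Cyp2 genes was -0.15, lay between -0.26 and -0.02 when each replicate was left out, and turned to 0.04 with quantile normalization and 0.01 with the length trend removed, a move smaller than the spread between libraries.

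Among single genes, values near 0 changed sign. With quantile normalization Cyp2a5 was at 0.03, Cyp2c29 at 0.05, Cyp2c54 at 0.06 and Cyp2e1 at 0.03. With library weights Cyp2b10 was at -0.78, Cyp2d22 at -0.06, Cyp2d26 at -0.07 and Cyp2r1 at 0.05. With the length trend removed Cyp2c69 was at 0.04 and Cyp2e1 at 0.02. Leaving out each replicate gave -0.44 to 0.07 for Cyp2a5, -1.09 to 0.94 for Cyp2b10, -0.12 to 0.66 for Cyp2c40, -0.07 to 0.21 for Cyp2c50, -0.40 to 0.05 for Cyp2c54, -0.20 to 0.14 for Cyp2d9, -0.20 to 0.22 for Cyp2d10, -0.15 to 0.24 for Cyp2d22, -0.18 to 0.16 for Cyp2d26, -0.02 to 1.18 for Cyp2g1 and -0.38 to 0.14 for Cyp2r1. The 10 genes whose groups did not overlap kept their sign under every setting that gave them a value, and quantile normalization moved Cyp2j5 from -0.53 to -0.29 and Cyp2c67 from -0.47 to -0.23. Cyp2d40 lay between 0.47 (without control replicate 1) and 1.13 when each replicate was left out.

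The replicate block called 0 Cyp2 genes in either direction, left their median at -0.15 and gave 27 higher and 23 lower over all genes. Whether the numbers pair the mice is not settled, and the block is given only here. Some genes had no value because they fell under the filter: Cyp2a4 without double knockout replicate 2, Cyp2b13 without double knockout replicate 1, Cyp2a22 without control replicate 3, Cyp2c69 without control replicate 1, and all 4 and Cyp2g1 with the filter at 2 FPKM. Low values carry large counting error at this depth, and close paralogs limit single values of the Cyp2c, Cyp2d and Cyp2a genes and of Cyp2b13.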
